A study of Homo sapiens with 6 samples.

Results

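Genes of the fibrous extracellular matrix were followed through ribosome profiling of WPMY-1 cells, an immortal line of stromal myofibroblasts from human prostate. They are COL1A1, COL1A2, COL3A1, COL5A1, COL5A2, COL12A1, FN1, FBN1, LOX and LOXL2. They were chosen by Ensembl gene ID, and all 10 were found among the 62492 features of the deposited table. Ribosome profiling sequences the fragments of mRNA left under ribosomes after nuclease digestion, so the count of a gene reflects its mRNA and the density of ribosomes on it, which are not separated here. The TRMT61A knockdown group held 3 libraries of cells with a short hairpin RNA against TRMT61A, which catalyses the methylation of adenosine to m1A (1-methyladenosine) in tRNA. The control group held 3 libraries of cells with a control hairpin, labelled as TRMT61A wildtype. Both groups are cultures of this single line. The labels give no second hairpin against TRMT61A, no clone and no time after the knockdown, and they do not say that libraries came from separate cultures, so p-values cover the spread between libraries alone, part of which may be technical. The series set out to examine TRMT61A in the regulation of translation, and its title names the TGF-β pathway.

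Fibrillar collagens are long rods of chains wound around each other, with glycine and proline recurring along the chain. Type I collagen, the main fibre of most stroma, is built of COL1A1 and COL1A2 chains, with COL1A1 in excess. Type III is built of COL3A1 alone, and type V, of COL5A1 and COL5A2, starts fibrils and limits their width. COL12A1 coats the fibril surface, fibronectin (FN1) forms a network that cells assemble through integrins, and fibrillin-1 (FBN1) forms microfibrils that hold latent TGF-β. LOX and LOXL2 oxidise lysines so that the fibres become crosslinked. Many of these genes are known to respond to TGF-β in fibroblasts.

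The libraries held 12704354 to 17752247 counts in knockdown and 6771455 to 8008896 in control. Levels are given as CPM, the counts of a gene relative to the library total in a fixed unit, after scaling by TMM, a method that takes most features as unchanged between libraries. The 10 genes took 0.279%, 0.296% and 0.351% of the counts of knockdown libraries 1 to 3, against 0.228%, 0.403% and 0.450% of control libraries 1 to 3. Control library 1 stood apart from the other control libraries, and it was the lowest of its group for 8 of the 10 genes. The 50 most abundant features of the table held 69.7% to 73.0% of knockdown counts, against 70.7%, 62.3% and 61.4% in control libraries 1 to 3. The TMM factors ran from 0.858 to 0.974 in knockdown and were 0.923, 1.21 and 1.21 in control libraries 1 to 3. In both, control library 1 lay within the range of the knockdown libraries. The part of these differences in the results below was not tested, beyond the fits with library size alone and without each library. In a bulk lysate, fewer cells that make a protein and fewer footprints per cell cannot be told apart.

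Under TRMT61A knockdown these genes differed in both directions. COL3A1, COL5A1 and COL5A2 rose by 2.41-fold to 3.30-fold, and LOX fell to 0.346 of its control level. COL1A2 was higher and COL1A1 lower in every knockdown library than in any control library, but neither passed the adjusted threshold. COL12A1, FN1, FBN1 and LOXL2 overlapped between the groups. A call means an adjusted p under 0.05 in edgeR's quasi-likelihood test, with Benjamini-Hochberg adjustment over all 11653 features tested. By that rule 4 of the 10 genes were called, against 3.12% of all features tested. Of these, 3 were higher, against 1.48% of all features tested, and 1 was lower, against 1.64%. All 10 lay among the most abundant 20% of features tested, by mean TMM-scaled CPM, where 8.71% were called, 4.12% higher and 4.59% lower. The genes were chosen with earlier results of these data known, so their share is a description. Their median log2 fold change was 0.19, against -0.0047 over all features tested, and the split within the set does not show in it. It was -0.13 with library size alone in place of the TMM factors, 0.045 without control library 1, 0.11 without knockdown library 2 and 0.37 without control library 3.

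**Figure D1:**
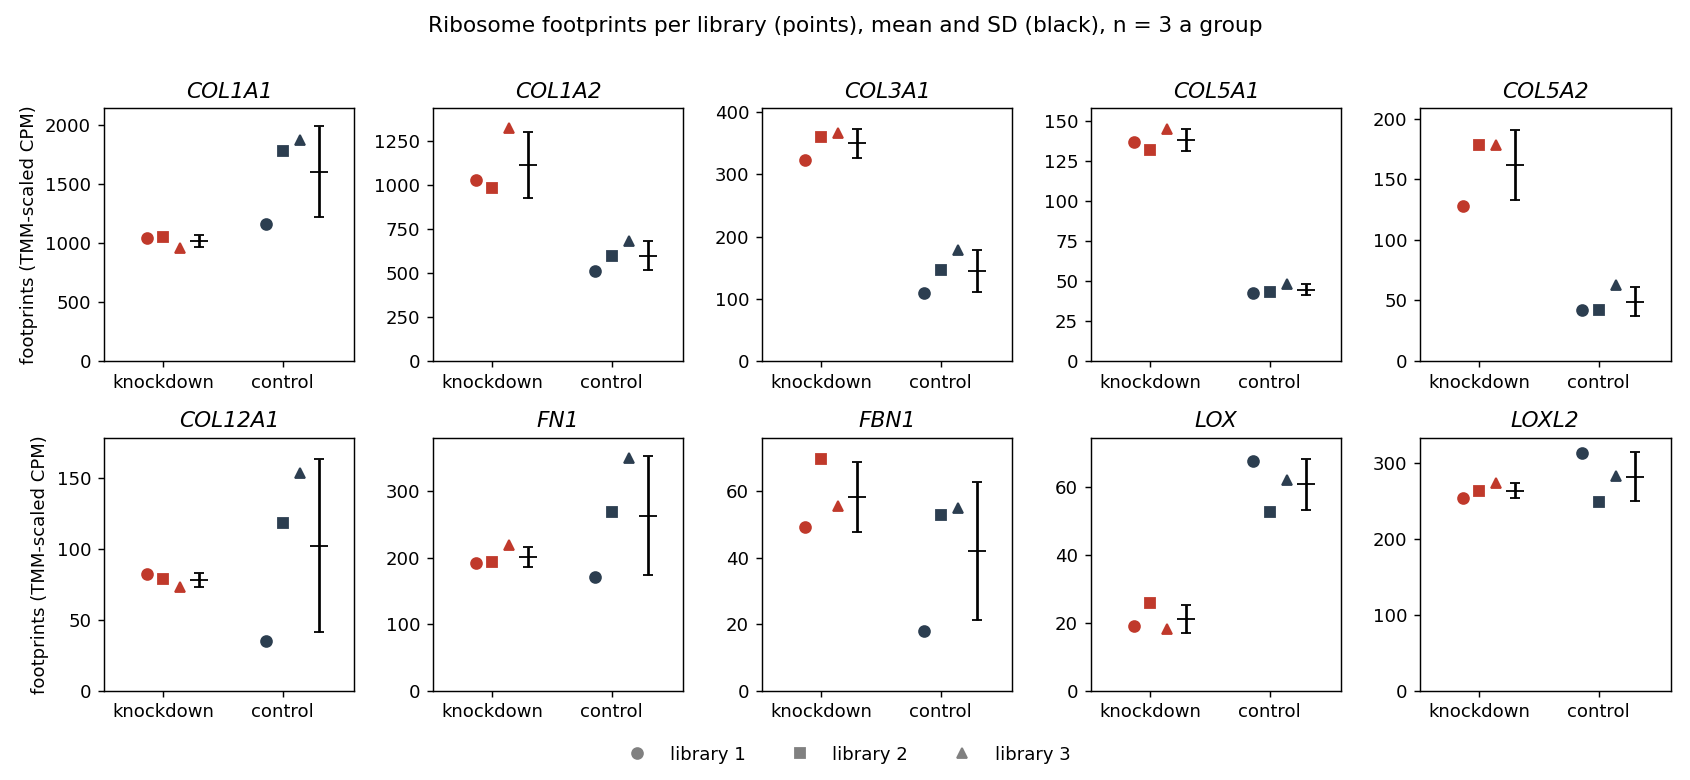
Ribosome footprints of the 10 genes in TMM-scaled CPM (vertical axes, from 0) in the knockdown libraries (left) and the control libraries (right). Each point is a library, with its number shown by the symbol, and black marks are the mean and SD of 3 libraries. COL1A2, COL3A1, COL5A1 and COL5A2 lie higher in all knockdown libraries, COL1A1 and LOX lie lower, and control library 1 is low for COL12A1 and FBN1.

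Of the type V chains, COL5A1 (ENSG00000130635.16_7), a chain that most type V molecules contain, had 137, 132 and 145 CPM in knockdown libraries 1 to 3, against 42.3, 43.4 and 48.4 CPM in control libraries 1 to 3. The groups lay far apart, and the lowest knockdown library exceeded the highest control library. Footprints were 3.09-fold higher in knockdown, a log2 fold change of 1.63 ± 0.21 (SE, edgeR adjusted p = 0.00412). The 95% interval, not adjusted for the number of features, ran from 2.23-fold to 4.27-fold. COL5A1 was called under all 15 alternatives run for it, at log2 fold changes of 1.33 to 1.68.

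COL5A2 (ENSG00000204262.14_7), the partner chain, had 128, 178.6 and 178.6 CPM in knockdown libraries 1 to 3, against 42.0, 42.1 and 62.8 CPM in control libraries 1 to 3. Every knockdown library was above every control library, and control library 3 was the highest of the controls. COL5A2 rose by 1.72 ± 0.26 (SE) on the log2 scale, or 3.30-fold (edgeR adjusted p = 0.00705), with a 95% interval of 2.24-fold to 4.86-fold. The call was lost without control library 2 (log2 fold change 1.62, edgeR adjusted p = 0.0569), and it held under the other 14 alternatives.

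COL3A1 (ENSG00000168542.16_5), the sole chain of type III collagen, had 322, 359.7 and 367 CPM in knockdown libraries 1 to 3. In control libraries 1 to 3 it had 110.0, 147 and 178 CPM. The groups did not overlap, and the controls spread more widely (a coefficient of variation of 6.84% in knockdown and 23.6% in control). COL3A1 rose by 1.27 ± 0.24 (SE) on the log2 scale, or 2.41-fold (edgeR adjusted p = 0.0154). It was called under 10 of 15 alternatives. The call was lost in edgeR without knockdown library 2 (adjusted p = 0.0786), without knockdown library 3 (0.0506), without control library 1 (0.0517), without control library 2 (0.0936) and when TMM was replaced by library size alone (0.110). Its log2 fold change ran from 0.95 to 1.44 over all alternatives.

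The chains of type I collagen differed in opposite directions, both short of the threshold. COL1A2 (ENSG00000164692.18_4) had 1028, 979 and 1324 CPM in knockdown libraries 1 to 3, against 513, 597 and 678 CPM in control libraries 1 to 3. All knockdown libraries were above all control libraries. Its log2 fold change was 0.90 ± 0.23 (SE), or 1.86-fold, and the adjusted p was 0.0584 in edgeR, just short of the threshold. It was called under 4 of 14 alternatives, among them DESeq2 (adjusted p = 0.000217) and limma voom (0.0182), and under no fit that left out a library. DESeq2 called 11.2% of the features to which it gave an adjusted p.

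COL1A1 (ENSG00000108821.14_5) had 1039.9, 1051 and 955 CPM in knockdown libraries 1 to 3, against 1164, 1776 and 1871 CPM in control libraries 1 to 3. The highest knockdown library was below the lowest control library, but control library 1 lay nearer to the knockdown libraries than to the other controls. The log2 fold change was -0.66 ± 0.24 (SE), or 0.633 of control (edgeR adjusted p = 0.183), with a 95% interval of 0.439 to 0.914 of control. COL1A1 was called in 1 of 14 alternatives, DESeq2, at an adjusted p of 0.0217. Without control library 1 its log2 fold change was -0.85 (edgeR adjusted p = 0.0945).

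The ratio of COL1A1 to COL1A2 counts within a library does not depend on how libraries are scaled to each other. It was 1.01, 1.07 and 0.721 in knockdown libraries 1 to 3, against 2.27, 2.97 and 2.76 in control libraries 1 to 3. The groups were wide apart, with means of 0.936 ± 0.188 in knockdown and 2.67 ± 0.36 in control (SD, n = 3 each). The difference of the mean log2 ratios was -1.52, and it ran from -1.63 to -1.35 when each library was left out in turn. The exact permutation test over libraries, two-sided, gave p = 0.1, the smallest that 3 against 3 libraries allow, and 0.2 after adjustment over the 2 ratios tested. As the ratio is of counts and not per length, it is no measure of how many chains of each kind were made.

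The ratio of COL5A1 to COL5A2 differed far less. It was 1.07, 0.738 and 0.814 in knockdown libraries 1 to 3, against 1.01, 1.03 and 0.771 in control libraries 1 to 3. The groups overlapped throughout. The difference of the mean log2 ratios was -0.11, with an exact permutation p of 0.8 (two-sided, 0.8 after adjustment), and its sign turned without knockdown library 2 (0.0064).

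**Figure D2:**
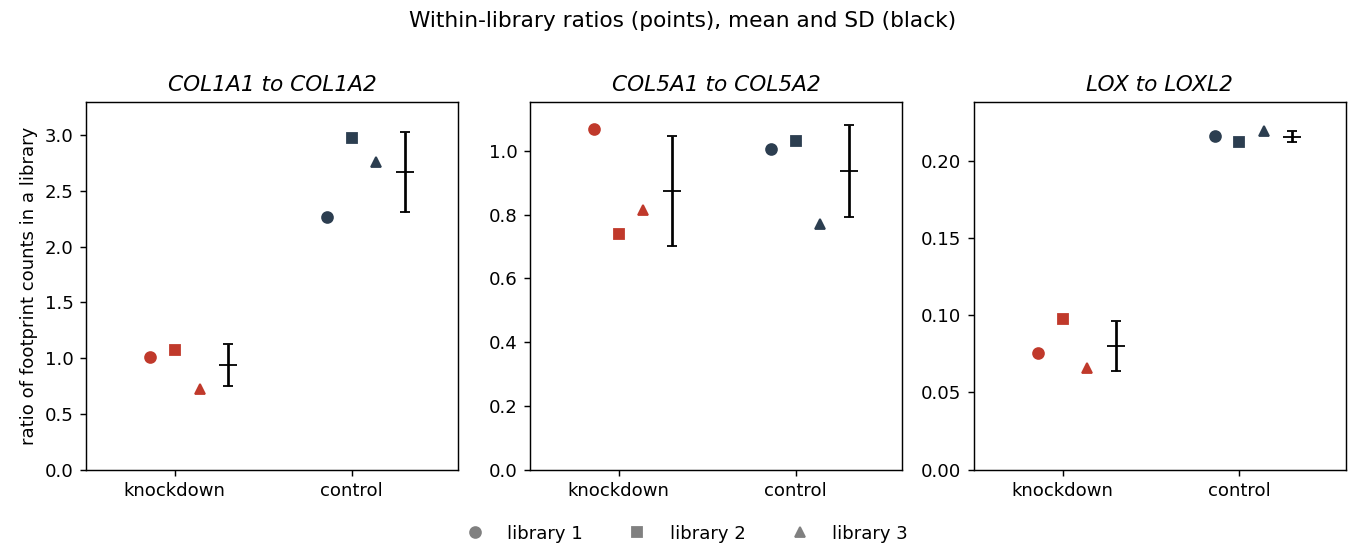
Ratios of footprint counts within each library (vertical axes, from 0) for COL1A1 to COL1A2, COL5A1 to COL5A2 and LOX to LOXL2, knockdown left and control right. Points are libraries and black marks the mean and SD of 3. The COL1A1 to COL1A2 ratio is 0.721 to 1.07 in knockdown and 2.27 to 2.97 in control, while the type V ratios overlap.

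LOX (ENSG00000113083.14_7), lysyl oxidase, had 19.2, 25.8 and 18.1 CPM in knockdown libraries 1 to 3, against 67.7, 52.7 and 62.0 CPM in control libraries 1 to 3. Each knockdown library was well below each control library. LOX fell by 1.53 ± 0.26 (SE) on the log2 scale, to 0.346 of control (edgeR adjusted p = 0.0109), with a 95% interval of 0.234 to 0.510 of control. The call held under 13 of 15 alternatives. It was lost without control library 2 (log2 fold change -1.63, adjusted p = 0.0522 in edgeR) and without control library 3 (-1.52, adjusted p = 0.0584 in edgeR). The lowest LOX count in a library was 223, where counting error alone gives a coefficient of variation of 6.70%.

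LOXL2 (ENSG00000134013.16_6), a relative of LOX with the same chemistry, had 254, 264 and 273 CPM in knockdown libraries 1 to 3, against 313, 249 and 283 CPM in control libraries 1 to 3. The groups overlapped. Its log2 fold change was -0.095 ± 0.21 (SE, edgeR adjusted p = 0.894). The 95% interval ran from 0.684 to 1.28 of control, which leaves out a fall as large as that of LOX. The ratio of LOX to LOXL2 counts, a pair chosen after the values were seen and so not tested, was 0.0756, 0.0977 and 0.0661 in knockdown libraries 1 to 3. It was 0.216, 0.212 and 0.219 in control libraries 1 to 3, which hardly differed among themselves.

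The start regions of the called genes that moved in opposite directions are shown for COL5A1 and LOX, since the direction of the footprints separates them. RefSeq promoters (GRCh38.p14) matched 5 of the 10 genes, COL5A1, COL12A1, FN1, FBN1 and LOX. The 250 bases before the first listed start are given, 5′ to 3′ on the gene's strand, for COL5A1 at chr9:134641553-134641802 (plus strand) and for LOX at chr5:122078260-122078509 (minus strand). Capitals mark any match, on either strand, to TATAAA (the TATA box), CCAAT (the CCAAT box) or CAGAC (the core that SMAD proteins, the transcription factors of TGF-β signalling, are known to bind).
COL5A1: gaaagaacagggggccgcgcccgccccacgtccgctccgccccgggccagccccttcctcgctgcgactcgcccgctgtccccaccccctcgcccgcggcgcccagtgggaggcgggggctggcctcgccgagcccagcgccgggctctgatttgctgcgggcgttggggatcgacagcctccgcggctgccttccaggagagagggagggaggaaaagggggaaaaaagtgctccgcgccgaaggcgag
LOX: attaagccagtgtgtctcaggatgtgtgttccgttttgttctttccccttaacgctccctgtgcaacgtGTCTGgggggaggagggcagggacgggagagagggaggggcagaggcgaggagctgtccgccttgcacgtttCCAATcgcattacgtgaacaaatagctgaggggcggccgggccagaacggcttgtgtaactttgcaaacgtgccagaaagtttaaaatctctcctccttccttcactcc
RefSeq listed 2 starts for COL5A1 and 3 for LOX, and only the first of each was searched. The COL5A1 window held none of the 3 motifs. The LOX window held 1 match to CCAAT, 109 bases before the start, and 1 match to CAGAC on the opposite strand, as GTCTG, 181 bases before the start. Over 35116 windows of the same length in the table, some of them overlapping starts of one gene, 10.7% held TATAAA, 32.0% held CCAAT and 38% held CAGAC. Of the matched genes not called, FN1 held CCAAT and neither other motif, and COL12A1 and FBN1 held none, in windows taken the same way. Matches to such short motifs are frequent and describe these letters only.

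FN1 (ENSG00000115414.20_8) had 192, 193 and 219 CPM in knockdown libraries 1 to 3, against 170.5, 269 and 349.6 CPM in control libraries 1 to 3. The knockdown libraries were close to each other and fell within the range of the controls. The log2 fold change was -0.39 ± 0.26 (SE, edgeR adjusted p = 0.547), with a 95% interval of 0.513 to 1.14 of control. It was -0.63 without control library 1 and -0.13 without control library 3, so its size rested on single control libraries.

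COL12A1 (ENSG00000111799.21_6) had 82.3, 79.1 and 73.1 CPM in knockdown libraries 1 to 3. In control libraries 1 to 3 it had 34.7, 118 and 154 CPM, so that the lowest and the highest values both came from controls. The log2 fold change was -0.39 ± 0.40 (SE, edgeR adjusted p = 0.732). It was -0.80 without control library 1 and 0.027 without control library 3, so no direction was settled.

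FBN1 (ENSG00000166147.14_5) had 49.3, 69.7 and 55.5 CPM in knockdown libraries 1 to 3, against 18.0, 52.8 and 54.8 CPM in control libraries 1 to 3. Control library 1 was far below the rest, and the other control libraries lay among the knockdown libraries. The log2 fold change was 0.47 ± 0.36 (SE, edgeR adjusted p = 0.611), and it dropped to 0.11 without control library 1. The lowest count, 133 in control library 1, carries a counting error of 8.67%, against a coefficient of variation of 49.4% over the control libraries.

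**Figure D3:**
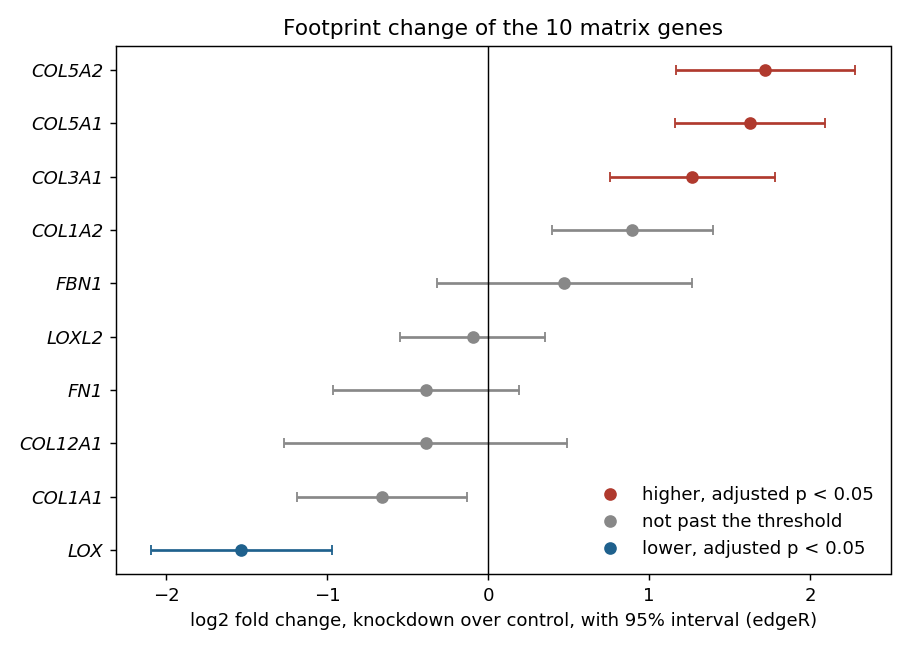
Log2 fold change of footprints, knockdown over control, for the 10 genes (horizontal axis), with edgeR's 95% intervals, not adjusted for the number of features. Red marks called rises, blue the called fall and grey the genes short of the threshold. COL5A2, COL5A1 and COL3A1 lie at 1.27 or above and LOX at -1.53, with COL1A2 and COL1A1 on opposite sides of 0.

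The spread between libraries was wider in control for 8 of the 10 genes. The median coefficient of variation of the 10 genes was 7.19% in knockdown and 23.7% in control. Over the most abundant 20% of features it was 18.2% in knockdown and 19.3% in control. Over all features tested it was 35.6% in knockdown and 32.6% in control. The share of all features with a wider spread in control was not counted. The wide control spread was that of COL12A1 (59.8%), FBN1 (49.4%), FN1 (34.1%), COL5A2 (24.5%), COL1A1 (23.9%) and COL3A1 (23.6%). In control, COL5A1 (7.30%), LOXL2 (11.5%), LOX (12.4%) and COL1A2 (13.9%) varied less. LOX (19.8% in knockdown) and COL1A2 (16.8% in knockdown) varied more in knockdown than in control. The groups did not overlap for 6 of the 10 genes, against 24.8% of all features tested and 37.2% of the most abundant 20%.

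The total of the 10 genes did not settle to either side, while its makeup differed. Summed TMM-scaled levels were 3397 ± 187 CPM in knockdown and 3188 ± 648 CPM in control (SD, n = 3 each), a difference smaller than the control SD. The log2 difference of the summed levels, 0.11, turned to -0.17 with library size alone and to -0.065 without control library 1. It was 0.23 without control library 3, and 0.38 without the 50 most abundant features, which take COL1A1 and COL1A2 out of the sum. COL1A1 held 26.5% to 32.0% of these genes' counts in knockdown libraries, against 47.0% to 53.1% in control libraries. COL1A2 held 29.4% to 36.7% in knockdown and 17.8% to 20.7% in control. COL1A1 counts, not per length, thus exceeded COL1A2 counts in every control library. In knockdown they were near parity in libraries 1 and 2, with COL1A2 ahead in library 3.

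For the called genes the shares differed in the same direction as the scaled levels. COL3A1 held 9.91% to 10.8% of the counts of the 10 genes in knockdown libraries and 4.38% to 4.76% in control libraries. COL5A1 held 4.07% ± 0.13 in knockdown and 1.43% ± 0.24 in control (SD, n = 3 each). COL5A2 held 4.75% ± 0.73 in knockdown and 1.54% ± 0.25 in control (SD, n = 3 each). LOX held 0.501% to 0.773% in knockdown and 1.58% to 2.73% in control. FN1 held 5.79% to 6.06% in knockdown and 6.89% to 9.34% in control, without overlap, although its scaled levels overlapped. Shares of a fixed total are not independent of each other, and these were not tested.

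The calls and sizes under other settings are shown in the plot of alternatives. No gene changed direction under another scaling, filter or tool or with the replicate block. When libraries were scaled by their totals and not by TMM, the median log2 fold change of all features was -0.30, so each gene moved down by a like amount, to 1.33 for COL5A1, 1.42 for COL5A2, 0.95 for COL3A1, 0.60 for COL1A2, -0.99 for COL1A1 and -1.82 for LOX. COL5A1, COL5A2 and LOX remained called there. The groups of these 6 genes do not overlap, which all but fixes their direction when a library is left out.

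**Figure D4:**
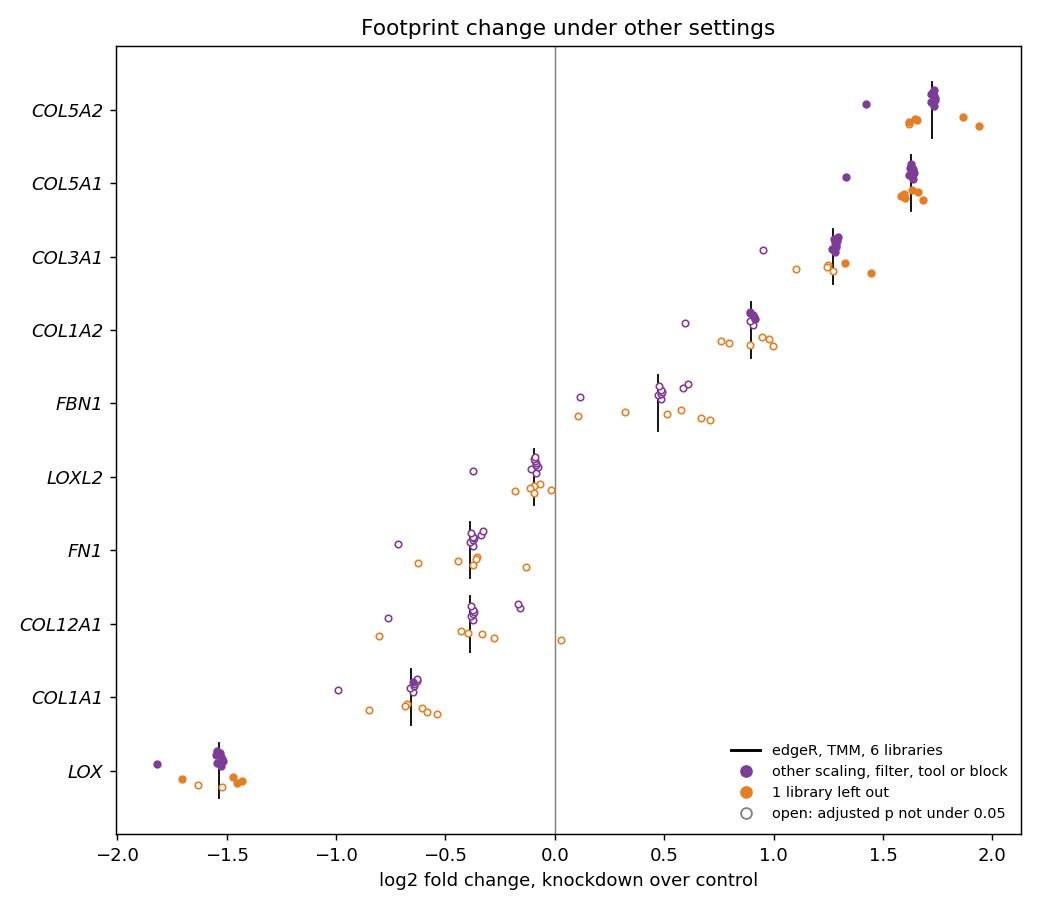
Log2 fold change of footprints, knockdown over control (horizontal axis), of each gene under alternative settings. The black line is edgeR with TMM on 6 libraries, purple circles are other scalings, filters, tools or the replicate block, orange circles leave out 1 library, and open circles miss an adjusted p of 0.05. COL5A1 is filled throughout, at 1.33 to 1.68, and COL12A1 crosses 0 at 0.027 without control library 3.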

How the data were processed

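Ribosome footprints were measured in 6 libraries of WPMY-1 cells. The deposited values are raw read counts per Ensembl gene ID. The build hg38 and the tools Bowtie 1.3.1 and fastp are named, per the submitters' processing notes. How reads were counted, on which annotation and whether by strand is not given in the sources used here. Without strand, overlapping and antisense genes cannot be told apart, and no molecular identifiers are described, so PCR copies may be counted.

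Columns named for a vector were matched to the control hairpin samples by assay and replicate number. The table's 6 RNA columns belong to no sample described here and were not used, so mRNA change and translation are not separated. The files do not pair IDs with names. The names of the 10 genes came with their IDs, and TRMT61A, cell type markers and lists of other matrix genes were not analysed here. Levels per length were not computed for want of lengths. The genes and lists were chosen with earlier results of these data known. All 10 genes are named, and no other feature.

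Features were kept by filterByExpr (11653, holding 99.8% of counts) and scaled by TMM. Knockdown was compared with control by edgeR 4.0.16 in R 4.3.3 (glmQLFit and glmQLFTest, two-sided, Benjamini-Hochberg threshold 0.05), and the code was tested on simulated data. SE is the log2 fold change divided by the square root of F. Total counts ran from 6771455 to 17752247. A count of 0 allows up to 3 counts, 4.43e-05% of the shallowest library, for counting error only. Alternatives were DESeq2 1.42.0, limma 3.58.1 with voom, other scalings and filters, a replicate block and leaving out each library.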

Additional observations from a re-analysis of the deposited data

How the results depend on the processing

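The number of features called was 364 (173 higher, 191 lower), or 63 higher and 334 lower with library size alone. With no filter on low counts it was 735 of 20515 features tested. It was 602 of 6111 with at least 10 CPM in 3 libraries. In DESeq2 it was 799 of 7134 with a defined adjusted p, and with the replicate block 208 of 11653. Leaving out each library gave 47 (of 12672, without control library 2) to 171 (of 11886, without knockdown library 3). The last fits have fewer samples, and other causes were not tested. Of the 10 genes, 4 were called, beside 364 of all 11653 features tested, and 1 to 4 when each library was left out. Without knockdown library 1 it was 4, beside 167 of all 11944 tested. Without control library 2 it was 1 (COL5A1), beside 47 of all 12672 tested. The median log2 fold change of the 10 genes, 0.19, was -0.13 with library size alone, which moves the median of all features down. It was 0.045 to 0.37 with each library left out. With library size alone COL3A1 was at 0.95 and not called. COL1A2 was called without the filter (0.91), with at least 10 CPM in 3 libraries (0.91), in DESeq2 (0.91) and in limma voom (0.89), and COL1A1 in DESeq2 (-0.65). With each library left out, log2 fold changes ran from 1.10 to 1.44 for COL3A1, 1.62 to 1.94 for COL5A2, -1.71 to -1.43 for LOX and -0.80 to 0.027 for COL12A1. The log2 difference in the COL5A1 to COL5A2 ratio ran from -0.26 to 0.0064. COL1A1 and COL1A2 were not tested without the 50 most abundant features, which include them. The replicate block (COL5A1 1.63, COL5A2 1.73, LOX -1.54) changed no call among the 10. Deviations of same-numbered libraries from their group means, over all features tested, correlated at -0.0065, -0.015 and 0.039. Only knockdown library 3 correlated best with the control library of its own number. No clear pairing was seen, but 3 libraries a group could miss a weak one. The lists of other matrix genes were not run. Over the control libraries, COL12A1, FN1 and FBN1 had coefficients of variation of 59.8%, 34.1% and 49.4%. Counting error at their lowest counts was 6.25%, 2.82% and 8.67%. What set the precision of their fold changes was not tested.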
